A study of Mus musculus with 28 samples.

Results

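Between uninduced Pre-B cells (0h) and cells on their way to a macrophage state (48h), 8953 promoter contacts were listed at both ends of the time course and at neither of the time points between, 1h and 12h. Each is a pair of HindIII restriction fragments on one chromosome, one of them a captured promoter fragment (the bait) and the other not a bait, with 50 kb to 1 Mb between their midpoints. They were chosen from the presence or absence of the pair in the 4 deposited interaction lists. They made up 4.41% of the 203210 bait to non-bait pairs within this distance and 3.27% of all 273644 listed fragment pairs. In the order of the time points, a member is therefore a contact that left the list after 0h and stood in it again at 48h.

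Promoters are brought near distant enhancers by loops of the chromatin fibre, which cohesin extrudes and CTCF can halt, and by association between active or between silent regions. Promoter Capture Hi-C (PCHi-C) ligates restriction fragments that lie close to each other in the nucleus and enriches the ligation products that contain a promoter. Early B cells depend on the transcription factors EBF1, PAX5 and FOXO1 and on signals of the interleukin-7 receptor, whereas C/EBPα and PU.1 drive the macrophage programme.

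The cells were C10, a mouse Pre-B line with a C/EBPαER transgene, in which C/EBPα is joined to the hormone-binding part of the estrogen receptor and stays out of the nucleus until β-estradiol is given. The 0h group was uninduced, and the 1h, 12h and 48h groups received 100 nM β-estradiol together with IL-3 and CSF-1. All groups carry the transgene and come from one line, so an effect of hormone and cytokines without it is not analysed here. PCHi-C had 2 replicates per time point, merged by the authors into 1 list each, so a contact has no replicate error. RNA-seq had 3 libraries per time point. The window held 99986 pairs at 0h, 97977 at 1h, 93765 at 12h and, by 48h, 109137. TPM keep no record of depth, and the depths of the libraries were not used here. A pair of genes of one ribosomal RNA locus took between 70.3% and 82.9% of the TPM in each library. TPM were divided by a size factor for each library (scaled TPM). The summed scaled TPM of 11 Pre-B markers lay between 335 and 359 at 0h and between 44.2 and 52.4 at 48h, and that of 10 macrophage markers rose from between 12.8 and 15.5 to between 1453 and 1734. T and NK, erythroid and fibroblast markers summed to at most 0.126 in every library, while 6 neutrophil granule markers reached between 7.44 and 10.5 at 12h. In bulk samples fewer cells of a type and less RNA per cell cannot be told apart.

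The promoters of Cxcr4, the receptor for the chemokine CXCL12, and of Il7r, the interleukin-7 receptor α chain, both lie in baits with several members. They are shown with stretches of distant member fragments of Cxcr4, Il7r, Pax5 and Hoxb8, because these are the ends whose listing changed. All are GRCm38 sequences, promoters from the RefSeq table (250 bases before to 50 after the start, in the direction of the gene) and fragment stretches from the plus strand. Capitals mark letters that match C/EBP (TTGCNNAA), PU.1 (GAGGAAGT) or the palindromic core of the EBF1 motif on either strand. The core of the CTCF motif was searched too and has no match in the stretches shown.
Cxcr4 promoter, chr1:128592250-128592549, minus strand, no match: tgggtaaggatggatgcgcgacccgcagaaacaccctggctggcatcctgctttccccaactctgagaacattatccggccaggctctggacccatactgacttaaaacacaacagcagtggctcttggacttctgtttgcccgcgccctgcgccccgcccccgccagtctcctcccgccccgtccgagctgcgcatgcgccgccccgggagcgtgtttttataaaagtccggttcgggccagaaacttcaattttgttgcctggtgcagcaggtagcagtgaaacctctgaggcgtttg
Il7r promoter, chr15:9529827-9530126, minus strand, C/EBP letters: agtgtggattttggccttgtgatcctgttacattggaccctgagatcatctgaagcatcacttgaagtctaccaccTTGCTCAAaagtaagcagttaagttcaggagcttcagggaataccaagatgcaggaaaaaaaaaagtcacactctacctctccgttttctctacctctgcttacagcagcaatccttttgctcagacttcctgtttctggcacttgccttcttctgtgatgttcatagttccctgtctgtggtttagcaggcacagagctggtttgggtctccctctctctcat
Cxcr4 member fragment, chr1:128718865-128718952, PU.1 letters: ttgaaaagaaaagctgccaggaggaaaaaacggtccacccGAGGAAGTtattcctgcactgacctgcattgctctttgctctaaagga
The same Cxcr4 fragment, chr1:128718986-128719073, C/EBP letters: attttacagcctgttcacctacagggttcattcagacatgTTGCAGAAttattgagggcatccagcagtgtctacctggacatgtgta
Il7r member fragment inside Prlr, chr15:10310330-10310417, C/EBP letters: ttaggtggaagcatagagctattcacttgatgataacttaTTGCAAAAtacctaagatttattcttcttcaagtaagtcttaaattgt
Pax5 member fragment inside Zcchc7, chr4:44774334-44774421, C/EBP letters: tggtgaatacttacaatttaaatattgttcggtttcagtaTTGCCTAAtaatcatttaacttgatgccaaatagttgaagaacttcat
Hoxb8 member fragment inside Skap1, chr11:96634422-96634511, EBF1 letters: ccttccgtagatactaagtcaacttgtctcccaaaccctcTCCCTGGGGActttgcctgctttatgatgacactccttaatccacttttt

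Of the 56122 window pairs listed at both 0h and 48h, 16.0% were members (95% Wilson interval 15.7 to 16.3%, counting error only) and 33316 pairs were listed at all 4 time points. The reverse pattern, listed at 1h and 12h only, held 6511 pairs. The other 2 patterns of listings at a pair of time points that are not consecutive held fewer, 4117 for 0h with 12h and 5185 for 1h with 48h. By chromosome the member share of pairs listed at 0h and 48h ran from 13.6% on chromosome 12 to 20.3% on chromosome 13, with Y left aside, which had 9 such pairs. These counts are what the rule selects and carry no test.

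**Figure D1:**
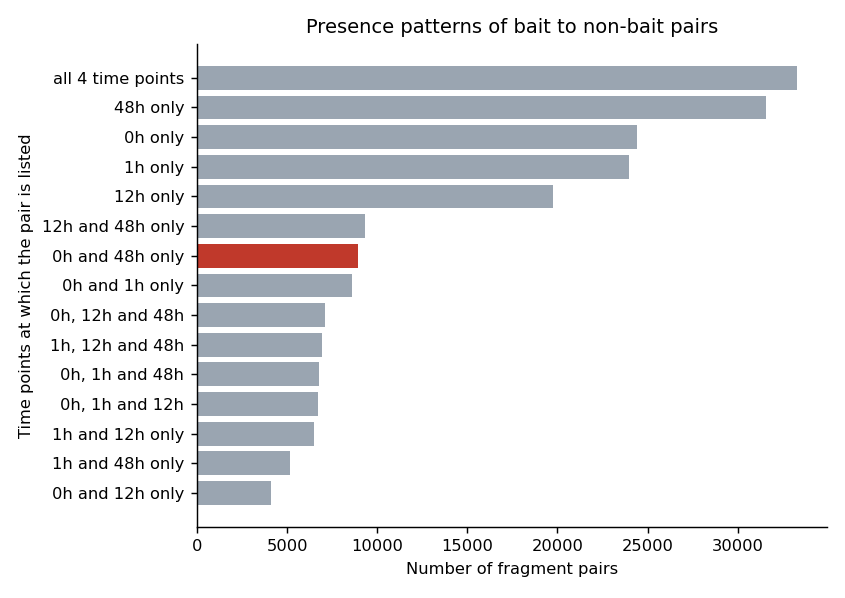
Number of bait to non-bait fragment pairs (50 kb to 1 Mb) for each set of time points at which they were listed. The red bar holds the 8953 members, listed at 0h and 48h only, and the longest bar the 33316 pairs listed at all 4 time points.

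Members had weaker 0h scores than contacts that were kept throughout. The CHiCAGO score, which weighs observed read pairs against a distance-dependent background, is only deposited for 0h, with 5 as its lowest listed value. Its median was 6.25 in members, 9.16 in pairs listed at all 4 time points and 5.78 in pairs listed at 0h only. Pairs of 0h and 1h only had a median of 6.33 and those of 0h and 12h only 6.08, so the level was not particular to members. Of the members, 42.2% scored under 6 and 5.56% at least 10, against 12.3% and 42.3% of the pairs kept at all 4. Read the other way, members were 31.4% of the 0h and 48h pairs with a 0h score between 5 and 6, 10.5% between 8 and 10 and 3.55% between 10 and 20. None of the 2376 pairs with a score of at least 20 was a member, which as a Wilson interval allows up to 0.161%. The highest 0h score of a member was 19.93.

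**Figure D2:**
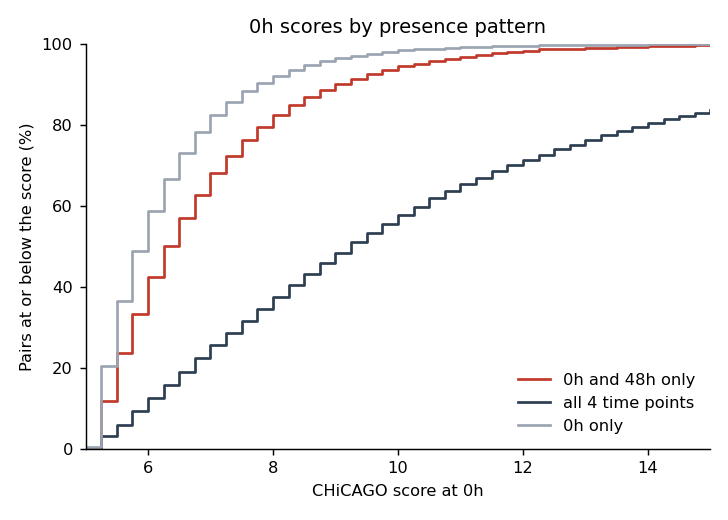
Cumulative share (%) of pairs by CHiCAGO score at 0h for members (red), pairs listed at all 4 time points (dark) and pairs listed at 0h only (grey). The member curve lies between the others, with medians of 6.25, 9.16 and 5.78.

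The 48h list holds whole numbers, whose unit its header does not name and which are taken here as read pairs. Members had a median of 12 (lowest 4, highest 87), pairs listed at all 4 a median of 19 and pairs listed at 48h only a median of 11. Pairs of 1h and 48h only had a median of 11 and those of 12h and 48h only 14. Members were 29.5% of the 0h and 48h pairs with a 48h number under 10 and 3.65% of those with at least 40. The median distance was 217724 bp in members, 179536 bp in pairs kept at all 4 and 195992 bp in the reverse pattern. It was 213096 bp over the whole window, 224656 bp for 0h with 12h only and 219504 bp for 1h with 48h only. The member share rose from 13.3% of 0h and 48h pairs between 50 and 100 kb to 22.5% of those beyond 400 kb. Just inside the lower distance limit lay a member of the Bloodlinc bait at 50021 bp with a 0h score of 7.71, and just outside it a pair of the Snord13 and Tti2 bait at 49988 bp with a score of 7.02. Just inside the upper limit a member of Gm25501 spanned 996804 bp with a score of 5.75, and just outside it a pair of Fndc3c1 spanned 1000740 bp with a score of 6.48. The same presence pattern was found in 1016 pairs under the lower limit and 149 over the upper one.

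Absence from a list means that a pair did not reach the list, not that no read pair was seen. Most members had another contact of the same bait close by at the time points where they were missing. At 1h, 67.7% of members lay within 10 kb of a listed contact of their own bait, and at 12h 70.3% did. For 57.6% this held at both time points, and for 19.5%, or 1749 members, at neither. For pairs listed at 0h only the shares were 52.4% at 1h and 43.9% at 12h. The median gap from a member to the nearest contact was 5583 bp at 1h and 5325 bp at 12h, while the median member fragment outside the bait was 2561 bp long. For 59.0% of members, a fragment that directly adjoins the missing one was listed with the same bait at 1h or 12h. Only 49 members belonged to baits with no contact at either time.

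**Figure D3:**
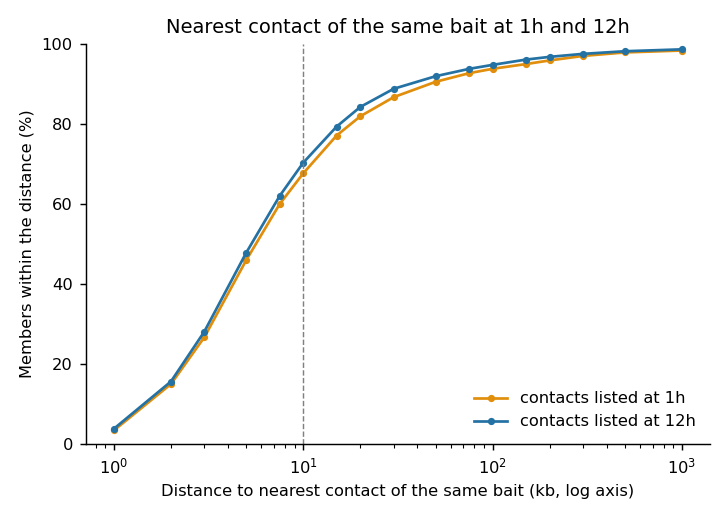
Share of the 8953 members (%) that lie within a given distance (kb, log axis) of a contact of the same bait listed at 1h (orange) or 12h (blue). At the dashed line of 10 kb the curves stand at 67.7% and 70.3%.

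The members lay on 4528 of the 15480 baits in the window. Of these baits, 2538 had 1 member, 338 had at least 5 and 29 had at least 10. The 338 baits with at least 5 held 2238 members. Over all 4528, the contacts per bait that were not members numbered 12.0 at 0h, 11.8 at 1h, 11.5 at 12h and, by 48h, 13.4. On the 338 baits with most members, chosen by that number, the contacts that were not members numbered 27.5 per bait at 0h, 23.5 at 1h, 23.8 at 12h and, by 48h, 31.6. On the 10952 baits without a member the numbers were 3.37, 4.07, 3.81 and 3.60 per bait, highest at 1h. The rule sets these baits apart too, since it leaves out every bait with a pair of 0h and 48h only. The difference between the groups is therefore partly built in and carries no test. The members reached 8215 different fragments, of which 7556 had 1 member and the most shared had 5. In 475 places, neighbouring fragments of one bait were members together, in all 1007 of them. The longest such run had 5 fragments and belonged to Copb1, at chr7:114518612-114528383, with 0h scores from 5.34 to 6.5 and 48h numbers from 12 to 17.

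The bait with most members was that of the non-coding transcript 5930403N24Rik, chr10:37139226-37143373, with 30. All 30 lay on the side of higher coordinates, 134820 to 637586 bp away, and they were 30 of its 56 contacts listed at 0h and 48h. This bait had 70 contacts at 0h, 17 at 1h, 29 at 12h and, by 48h, 97. Here and below, such numbers of a single bait include its members, which the rule places at 0h and 48h only. The members of the 5930403N24Rik bait scored from 5.16 to 8.94 at 0h, close to the threshold throughout, and numbered from 12 to 51 at 48h. For 16 of the 30, no contact of the bait lay within 10 kb at 1h or 12h. The transcript itself was listed at 0 in every RNA library.

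On chromosome 16 the baits of the small RNA genes Gm22429 (16 members), Gm23659 (15) and Gm23374 with the pseudogene Gm16385 (14) formed one locus. Their 45 members stretched over chr16:64787838-65554106 and reached 41 fragments, 4 of them shared between baits. Htr1f, a serotonin receptor gene, held 10 of the fragments reached from Gm23659 and 6 of those reached from Gm22429. The highest 0h scores were 14.91 for Gm23659 and 15.27 for Gm16385. The Gm23659 bait had 26 contacts at 0h, 10 at 1h, 2 at 12h and, by 48h, 57, the lowest 12h number among the 10 baits. The 1 Mb bin of chromosome 16 that starts at 65000001 had members for 42 of its 72 pairs listed at 0h and 48h, from 5 baits. This was 58.3%, against 16.0% over all such pairs. By number of members, bins on chromosomes 18 (58) and 10 (45) had more, and the median was 3 over 1659 bins.

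Spef2, which encodes a protein of the sperm flagellum, had the second highest number, 19 members. It neighbours Il7r on chromosome 15, which had 5. Both reached into Prlr, the prolactin receptor gene, with 9 Spef2 members 535279 to 592721 bp away and 3 Il7r members 776276 to 790866 bp away. The 24 members of the baits reached 22 fragments, so 2 were shared. Spef2 was near the floor of detection, with 0.0581, 0.239 and 0.333 scaled TPM at 0h and 0.288, 0.196 and 0.213 at 48h, values that overlap.

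Il7r RNA fell after 0h and rose again by 48h, in part. Its bait had 27 contacts at 0h, 8 at 1h, 4 at 12h and, by 48h, 12, with the 5 members counted at 0h and 48h. The 5 members scored 5.08 to 9.26 at 0h, and the nearest one, 70123 bp away inside Capsl, had the highest 48h number, 57. That member had no contact of the bait within 251380 bp at 1h or 287017 bp at 12h. The RNA stood at 7.88, 7.94 and 8.32 scaled TPM at 0h, 0.854, 0.955 and 0.279 at 1h, 0.0281, 0 and 0 at 12h and 1.18, 0.936 and 1.24 at 48h. All 48h libraries lay above the 12h ones and well below those of 0h, and one 48h library lay just below the highest 1h library. By limma with Benjamini-Hochberg adjustment over all 16415 genes tested, the log2 difference at 48h against 12h was 3.48 (SE 0.35, adjusted p = 3.28e-05), and the midway difference, the mean of 1h and 12h less the mean of 0h and 48h, was -3.48 (SE 0.24, adjusted p = 5.15e-06). Against 0h the 48h level was still lower, by -2.75 (SE 0.35, adjusted p = 5.83e-05).

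Cxcr4 had 14 members, 6 on the side of lower and 8 on that of higher coordinates, 81752 to 228416 bp from the bait at chr1:128587743-128594308. The bait had 68 contacts at 0h, 48 at 1h, 38 at 12h and, by 48h, 79. Of these, 63 were listed at both ends, the 14 members among them. Each of the 14 had a contact of the bait within 10 kb at 1h, and 11 of them at 12h. The 3 exceptions were neighbours at 149925 to 154540 bp, whose nearest 12h contacts were 22834 to 27448 bp off. The strongest member at 0h scored 14.65. The fragment with PU.1 and C/EBP letters printed above scored 7.61 and numbered 14 at 48h. Cxcr4 RNA was 6.43, 5.14 and 4.63 scaled TPM at 0h, 9.01, 7.36 and 7.78 at 1h, 0.722, 0.296 and 0.539 at 12h and 1.93, 2.4 and 2.52 at 48h. The 4 groups did not overlap, and the order was 1h, 0h, 48h, 12h, which is not the order of the contact listing, since 1h was highest. The drop from 0h to 12h was -3.20 log2 (SE 0.25, adjusted p = 4.42e-06) and the rise from 12h to 48h 2.00 (SE 0.25, adjusted p = 0.00019), both by limma.

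Pax5, which holds cells to the B lineage, had 11 members, the most of the B-lineage factors. All 11 lay in Zcchc7, the next gene, 50669 to 204514 bp from the bait, with 0h scores from 5.88 to 13.99. The bait had 32 contacts at 0h, 11 each at 1h and 12h and 22 at 48h. By the rule, the 11 members are part of the 0h and 48h numbers only. Every member had another contact of the bait within 10 kb at 1h or 12h. Pax5 RNA was 16.5, 19.0 and 20.02 scaled TPM at 0h, 6.74, 6.55 and 6.64 at 1h, 2.59, 2.87 and 2.34 at 12h and 4.53, 5.38 and 5.99 at 48h. Its midway difference of -1.23 log2 passed (SE 0.10, adjusted p = 1.33e-05), with 48h above every 12h library and below every 1h library. On TPM without scaling it was -0.54 and no longer beyond 1.

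Copb1, a subunit of the coatomer of Golgi vesicles, had 15 members, 14 of them in Pde3b, a phosphodiesterase gene, 166706 to 272278 bp away. Its bait had 28, 11, 17 and 35 contacts at the 4 time points, with the 15 members counted at 0h and 48h by the rule. Copb1 RNA read 5.67, 5.34 and 4.61 scaled TPM at 0h, 4.36, 4.07 and 3.87 at 1h, 6.07, 5.24 and 5.31 at 12h and 5.5, 6.23 and 4.23 at 48h. No contrast passed, and the midway difference was -0.13 log2. The remaining baits of the first 10 were Dmxl1 with 17 members, a snRNA, Gm25282, with 14, and an antisense RNA, Gm16055, with 14. Dmxl1, a regulator of the vacuolar proton pump, passed in no contrast either. The other 2 did not pass the filter on low values.

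**Figure D4:**
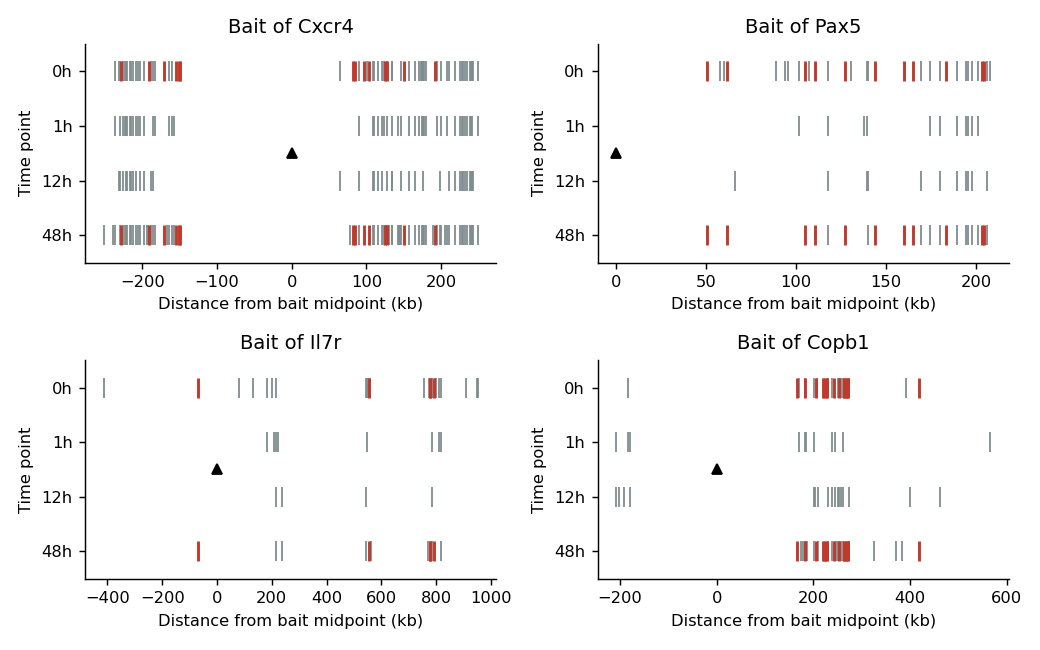
Listed contacts of 4 baits by distance from the bait midpoint (kb) at each time point, members in red, other contacts in grey and the bait as a triangle. The members stand in the 0h and 48h rows only, 14 for Cxcr4, 11 for Pax5, 5 for Il7r and 15 for Copb1, most of them beside grey contacts of the middle rows.

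Among the 1749 members without a contact of their bait within 10 kb at 1h or 12h, the highest 0h score was 18.97, for the bait shared by the splicing factor gene Cwc27 and Srek1ip1. It reached chr13:104282887-104285194, 529778 bp away, and numbered 7 at 48h, and its nearest contact midway was 11997 bp off. The next were Bend3, with 13.83 over 594129 bp to Crybg1, and Bcar3, with 13.68 over 109236 bp to a fragment inside Bcar3 itself. Of the 10 with the highest 0h scores, farthest from any contact midway were a pair of neighbouring Rmc1 members, at 147976 and 153746 bp, with 0h scores of 13.32 and 13.54 and 48h numbers of 6 each. Dazl (13.25, to Tbc1d5), the bait of Hoxb7 and Hoxb8 (13.24, to Skap1), Pfn3 (12.3, to Fam193b), that of Nfkbib and Sirt2 (12.11, to Ryr1) and that of Optn (11.86, to Cdc123) completed these 10. Their 48h numbers, 6 to 12, were at or under the median of 12 over all members.

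Hoxb8, a homeobox gene that holds progenitors immature, had 10 members from 2 bait fragments, 6 of them in Skap1. The EBF1 letters above come from one of these, 348566 bp away, with a 0h score of 11.64. Hoxb8 RNA was 21.6, 18.8 and 23.7 scaled TPM at 0h, 2.24, 3.04 and 3.05 at 1h, 1.73, 1.65 and 1.6 at 12h and 3.52, 3.51 and 5.18 at 48h. On scaled TPM every 48h library was above every 1h and 12h library, and all were far below 0h. The order of 48h above 1h depends on the scaling, with size factors of 1.33 to 1.56 at 1h and 0.625 to 0.751 at 48h. The midway difference was -2.06 log2 (SE 0.13, adjusted p = 3.33e-06), and 48h against 12h gave 1.22 (SE 0.19, adjusted p = 0.000777), the latter lost without scaling (0.50, adjusted p = 0.104 by limma) and with a pseudocount of 1 (0.91). Bcar3, an adaptor of integrin signalling, had 10 members and read 1.28, 3.21 and 2.27 scaled TPM at 0h, 0.758, 0.36 and 0.415 at 1h, 0.835, 0.602 and 1.5 at 12h and 3.21, 3.67 and 5.1 at 48h. Its midway difference passed at -1.95 (SE 0.28, adjusted p = 0.000677), though a 12h library overlapped the lowest of 0h. Bend3, a repressor protein, fell instead and stayed low, by -1.97 log2 at 48h (SE 0.33, adjusted p = 0.000535), or -0.84 with a pseudocount of 1. Cwc27 passed in no contrast.

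The content of G and C in the fragments at the far end was close to that of pairs listed at 48h only. The median was 42.2% in members, 42.5% in pairs of 48h only, 44.3% in pairs kept at all 4, 45.9% in the reverse pattern and 43.6% over all 99904 fragments of the window. A start site lay in 11.9% of member fragments, against 11.5% in pairs of 48h only, 12.2% over the window and 15.8% in the reverse pattern. Of member fragments, 35.1% touched an exon of a protein-coding gene, 30.5% lay within an intron and 34.4% lay outside such genes. In the central 1000 bases of fragments at least that long, C/EBP letters were found in 35.6% of 6790 member fragments, against 35.3% in pairs of 48h only, 34.3% over the window, 34.0% in pairs kept at all 4 and 30.7% in the reverse pattern. PU.1 letters stood in 6.20% (window 6.48%), EBF1 letters in 2.06% (2.19%) and CTCF letters in 0.898% (0.900%). In promoters, C/EBP letters were found in 8.95% of 4661 sequences of 3650 matched member genes and in 10.8% of all 32851, PU.1 letters in 3.09% and 3.20%, EBF1 letters in 1.18% and 0.904%, and CTCF letters in 2.12% and 1.28%. Base content moved with these sets, and its part in the shares was not tested.

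The baits with members held start sites of 6073 genes in the RNA table, or 30.5% of the 19942 genes of any bait in the window. Of the 6073, 71.2% were protein-coding, against 71.7% of the 19942. The filter of a mean TPM of at least 0.1 left 3770 of the 6073, and the other genes were not tested. At 0h, 41.9% of the 6073 had a mean of at least 1 scaled TPM, against 35.2% of the genes of any bait and 42.9% of the genes with a contact kept at all 4. A gene was called at an adjusted p under 0.05 and a log2 difference beyond 1, in either direction.

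The shares of genes with members called midway were near those of all genes. Midway, 108 of the 3770 were called higher (2.86%), where 3.34% of all 16415 tested genes were, and 174 were called lower (4.62%), beside 4.05%. The genes of any bait in the window gave 3.38% and 4.38%. The median midway difference was 0.01 log2 in genes with members and 0.08 over all genes. Among the 1093 tested genes of the members with no near contact midway, 55 were lower (5.03%) and 25 higher (2.29%).

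Libraries were also ordered without a model, on scaled TPM. All 6 libraries of 1h and 12h lay below every library of 0h and 48h in 57 of the 3770 genes (1.51%). This low order was found in 0.938% of all tested genes and 1.24% of the genes of any bait. The opposite order was found in 26 (0.690%), beside 0.896% and 0.868%. Among genes with at least 3 members, 22 of 920 (2.39%) had the low order and 11 (1.20%) the high one. This count was added after the values were seen and was not repeated on unscaled TPM.

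At 1h against 0h, 130 genes with members were higher (3.45%, background 4.09%) and 159 lower (4.22%, background 2.80%). At 12h against 0h, 373 were higher (9.89%, background 12.0%) and 478 lower (12.7%, background 9.36%). At 48h against 0h, 642 were higher (17.0%, background 19.7%) and 831 lower (22.0%, background 17.5%). From 12h to 48h, 313 rose (8.30%, background 7.60%) and 336 fell (8.91%, background 7.68%). The genes of any bait in the window, at 10.9% higher and 11.6% lower at 12h and 17.3% and 21.6% at 48h, stood nearer to the genes with members than all tested genes did. On TPM as deposited, without scaling between libraries, the median of all genes midway shifts from 0.08 to 0.67 log2, and the midway calls among genes with members turn from 108 higher and 174 lower to 702 higher and 71 lower. Among those at 48h against 12h, 313 higher and 336 lower turn to 122 and 1019.

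Of the 96 genes with at least 2 members, a mean TPM of at least 1 and a call midway, 60 were lower and 36 higher. Lower calls were also the more frequent over all 16415 tested genes, 4.05% (665) against 3.34% (549) higher. The share of all genes under the same limit on mean TPM was not counted. The largest negative differences belonged mostly to macrophage genes that were at or near 0 at all 3 earlier times, so that the difference comes from the 48h libraries. Siglec1, a sialic acid receptor of macrophages with 3 members, read at most 0.158 scaled TPM in every library before 48h and then 47.4, 49.6 and 65.7. Its midway difference was -4.00 log2 (SE 0.30, adjusted p = 7.62e-06). Slfn4 (2 members) was listed at 0 in all 0h and 1h libraries and reached 13.3, 12.8 and 11.1 at 48h. Itgam, the integrin chain CD11b, had 3 members in Itgad, the neighbouring integrin gene, from a bait that also holds Gm22809 and Gm49368. Its RNA was at most 0.0678 at 0h and 0.00754 at 1h, 0.422, 0.216 and 0.606 at 12h and 10.3, 11.7 and 12.5 at 48h. The rise to 48h was 6.25 log2 (SE 0.30, adjusted p = 3.12e-08). Irgm1, an interferon-induced GTPase, read 2.03, 2.38 and 1.92 at 0h, 0.732, 1.01 and 0.95 at 1h, 3.85, 3.17 and 4.03 at 12h and 36.8, 37.6 and 36.9 at 48h, and so was below 0h only at 1h. Il7r completed these 5 and was the only one of them with a 0h level above that of 48h.

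The largest positive differences belonged in the main to genes of dividing cells that fell to low levels at 48h. Top2a, the topoisomerase that untangles chromosomes at mitosis, had 4 members, 2 of them in Ccr7. It read 25.8, 22.2 and 24.3 scaled TPM at 0h, 22.7, 24.7 and 24.8 at 1h, 9.03, 7.74 and 8.13 at 12h and 0.704, 0.0698 and 0.24 at 48h. The groups of 0h and 1h overlapped and the fall to 48h was -6.07 log2 (SE 0.41, adjusted p = 4.15e-07). Ect2, a regulator of cytokinesis with 3 members, fell by 4.15 log2 at 48h (SE 0.47, adjusted p = 2.5e-05). Cks2, a subunit of the cyclin-dependent kinases with 2 members, fell by 4.67 log2 (SE 0.50, adjusted p = 1.72e-05). Hist2h3c2, a histone H3 gene with 4 members, went from 145, 156 and 216 at 0h to 0.864, 0 and 3.2 at 48h, a value that is uncertain because near-identical histone genes share reads. Gm13185, an antisense RNA with 8 members, was the one gene of these 5 that was high at 1h and 12h and low at both ends, with 1.52, 1.82 and 1.52 at 1h and at most 0.456 at 0h and 0.74 at 48h. Its midway difference was 2.11 (SE 0.42, adjusted p = 0.00538), or 0.94 with a pseudocount of 1, and reads of its sense partner cannot be told apart where strand was not used in counting.

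**Figure D5:**
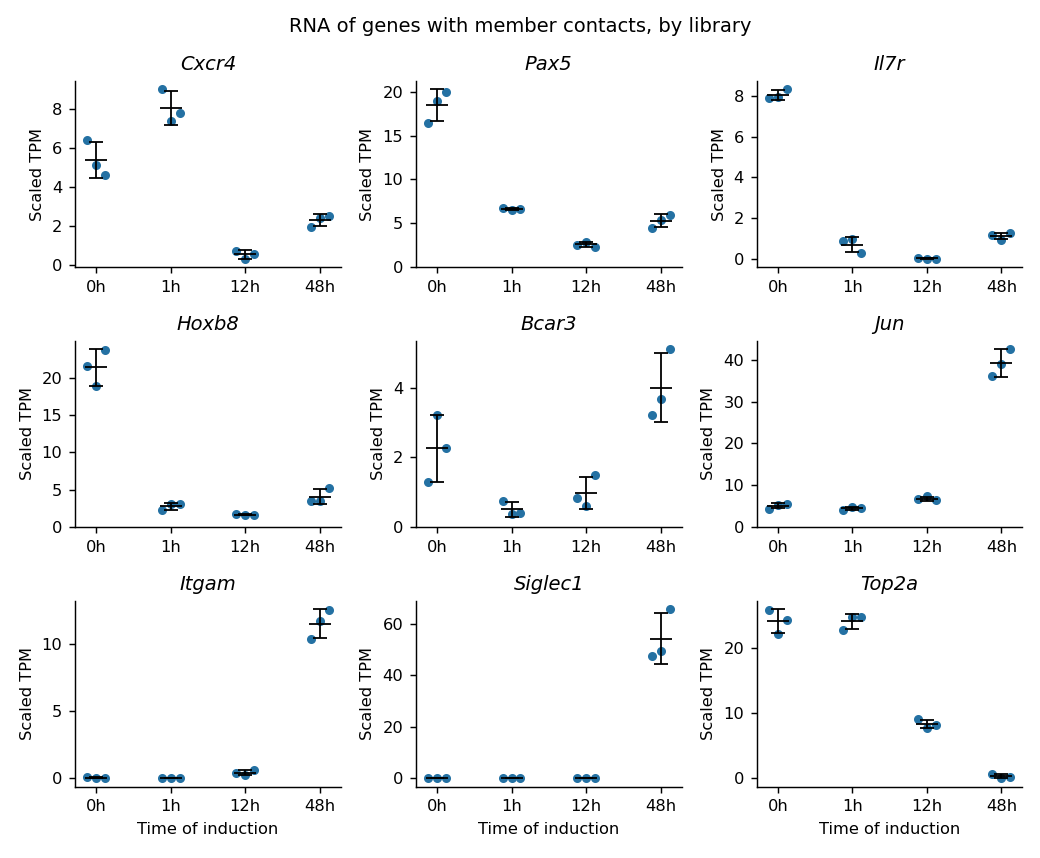
Scaled TPM of 9 genes with members at each time point, with a point for each of the 3 libraries and the mean and SD in black. Il7r, Pax5 and Hoxb8 are highest at 0h, Jun, Itgam and Siglec1 at 48h, Cxcr4 is lowest at 12h, and Bcar3 is low at 1h and 12h.

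Of the 45 genes with members, the low order of all libraries at 1h and 12h and a mean TPM of at least 1, 28 were called midway. For the high order 12 of 21 were. Over all tested genes 0.938% had the low order, and the share with all 3 conditions was not counted. Some of the 28 are named here, after their values were seen. Zfp36l2, which promotes the decay of mRNAs with AU-rich elements, had 4 members and read 27.1, 26.4 and 31.3 scaled TPM at 0h, 4.18, 3.96 and 5.07 at 1h, 13.6, 12.9 and 13.1 at 12h and 29.6, 31.5 and 37.9 at 48h. The 0h and 48h libraries overlapped. Foxo1 (4 members), a factor that activates Rag genes and Il7r in Pre-B cells, came back in part, with 4.02, 3.12 and 3.33 at 0h, at most 0.536 at 1h and 0.666 at 12h and 1.38, 1.31 and 1.52 at 48h. Its rise from 12h to 48h was 1.06 log2, and no longer passed without scaling (0.38) or with a pseudocount of 1 (0.57). Cd72 (2 members), a B-cell receptor for semaphorin, read 9.89, 16.6 and 14.7 at 0h, at most 4.51 at 1h and 2.3 at 12h and 5.21, 5.6 and 5.76 at 48h. Lhx2 (2 members), a LIM homeobox factor, fell to 2.37, 3.4 and 3.71 at 12h and stood at 20.5, 24.1 and 26.5 at 48h, above its 0h libraries of 15.6, 17.9 and 19.3. The proteinase inhibitor Cst3 (6 members) and the cathepsin Ctss (3) had only shallow lows and ended far above 0h, at 118, 122 and 163 and at 49.2, 50.2 and 42.6.

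Of 16 B-lineage transcription factors, all with a bait in the window, 12 had members, where 30.5% of the genes of any bait had. Baits with a member had 13.9 contacts each at 0h, members included, and the other baits of the window 3.37. The part of contact number in the share of a list was not tested. The numbers were 11 for Pax5, 6 each for Bach2, Irf4 and Lef1 and 4 for Foxo1. All 16 were tested, and 13 were called lower at 12h, 15 lower at 48h, and midway 4 lower and 2 higher. Over all tested genes these shares were 9.36%, 17.5%, 4.05% and 3.34%. Of the 12 with members, 9 were lower at 12h and 11 at 48h, and midway 4 were lower and 1 higher. Lef1, a Wnt pathway factor, had the member with the third highest 0h score of all, 19.24 over 398882 bp, but its RNA stayed down, at 27.4, 34.4 and 31.3 scaled TPM at 0h and 3.95, 3.78 and 1.53 at 48h. Bach2, a repressor of plasma cell differentiation, fell by 4.59 log2 at 48h (SE 0.49, adjusted p = 1.55e-05). Irf4 was near 1 throughout, from 0.955 to 1.62 at 0h and 1.1 to 1.85 at 48h, and passed in no contrast. Of 18 Pre-B receptor and surface genes 4 of the 16 with a bait in the window had members, near the share over all genes of a bait, Cd24a with 6, Il7r with 5, Syk with 3 and Cd72 with 2, while 15 of the 18 were lower at 12h. Cd24a, which encodes a surface sialoglycoprotein, fell by 4.01 log2 at 48h (SE 0.18, adjusted p = 1.85e-08).

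Of 24 myeloid transcription factors, 6 of the 22 with a bait in the window had members, 17 in all. For this list and those of macrophage and cytokine genes below, the share over all genes of a bait was 30.5%. Jun, a subunit of AP-1, had 9 members, one of them with a 0h score of 17.05 over 808317 bp. With these 9 counted at 0h and 48h, Jun had 100, 66, 45 and 48 contacts at the 4 time points. Its RNA was 4.37, 5.36 and 5.5 scaled TPM at 0h and, in every library above these, 6.67, 7.33 and 6.4 at 12h, a difference of 0.42 log2 that was short of the threshold of 1 (SE 0.13, adjusted p = 0.0326). It reached 36.2, 38.9 and 42.6 at 48h, a rise of 2.93 log2 over 0h (SE 0.13, adjusted p = 2.01e-08). Runx1 (3 members) and Klf6 (2) were also higher at 48h, by 1.61 (SE 0.17, adjusted p = 1.25e-05) and 3.35 (SE 0.14, adjusted p = 1.33e-08). Of 25 macrophage surface and effector genes, 7 of the 20 with a bait in the window had 12 members, led by Mmp8, a collagenase, with 4. Of the 24 tested in that list, 20 were higher at 12h and 22 at 48h, and all 7 with members were among them at both times. Over all tested genes 12.0% and 19.7% were higher. Of 16 chemokine and cytokine genes, 1 of the 15 with a bait in the window, Il6, had members (2).

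Of 18 CTCF, cohesin and loop regulators, 7 of the 15 with a bait in the window had members, at most 2 each. The share over all genes of a bait was 30.5%. Of the 17 tested, 2 were lower at 12h and 6 at 48h, where 9.36% and 17.5% of all tested genes were. Nipbl, the cohesin loader, and Pds5a, a cohesin regulator, with 2 members each, did not pass at 48h, at 0.77 and -0.68 log2. Another list held 17 genes of Mediator, BET proteins and enzymes that acetylate histones or methylate or demethylate their lysines. Of the 15 with a bait in the window, 8 had 21 members in all, beside the same share of 30.5% over all genes of a bait. The part of contact number in these shares was not tested. Kdm6a, an H3K27 demethylase, had 8, the H3K4 methyltransferases Kmt2c and Kmt2d 2 each, and Ccnc, the cyclin of the Mediator kinase, 4. Kdm6a RNA ranged from 2.55 to 4.87 scaled TPM at 0h and from 2.91 to 4.41 at 48h. Among 25 cell cycle genes, 5 of the 19 with a bait in the window had members, where 30.5% of all genes of a bait had. The antiproliferative Btg1 led this list with 3 and rose by 3.72 log2 at 48h by limma (SE 0.24, adjusted p = 3.16e-07). Of the 24 tested there, 17 were lower and 5 higher at 48h, where 17.5% and 19.7% of all tested genes were. In the lists of other cell types, 7 of the 25 genes with a bait in the window had members, again near the share over all genes of a bait. They were Nkg7 and Cd4, Itga2b and Pf4, Pdgfra, and S100a9 and Mpo. Itga2b apart, each of these was listed at 0 in every RNA library.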

How the data were processed

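PCHi-C reads of 2 replicates per time point were processed by the authors with HiCUP, merged and called with CHiCAGO at a score of at least 5 on mm10. The deposited 0h list holds that score, and the 3 later lists hold whole numbers of a unit the headers do not name, taken as counts of read pairs and set beside no score. Bait means first fragment in any list. Of the member fragments, 100% start at a HindIII cut of GRCm38. Start sites are those of GENCODE M21. For RNA-seq the authors trimmed with Trim Galore 0.6.2, mapped with HISAT2 2.1.0 and deposited TPM by RSEM, as the submitters' processing notes list them. TPM were divided by median-of-ratios size factors, and 16415 genes (mean TPM not under 0.1) entered limma 3.58.1 (R 4.3.3) on log2(TPM + 0.1), trend on, all 12 libraries in 1 model, with Benjamini-Hochberg adjustment. Fold changes of low genes depend on the 0.1 added. On simulated data the midway contrast recovered 92% of 200 genes changed by 2 log2 and called 7 unchanged ones. The changed genes had a mean TPM of at least 1 and the SD of each gene was capped. Recovery of lower or noisier genes was therefore not measured. Contacts have no replicates and got no test. Wilson intervals cover counting error only.

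Genes and fragments named were the 10 baits with most members, the 10 members of highest 0h score with no contact of the bait within 10 kb midway, the 5 largest midway differences each way among genes with at least 2 members and mean TPM not under 1, and up to 4 genes per list. The members, lists and rules were chosen with earlier results of these data known. Sequences are from RefSeq (GRCm38.p6). Alternatives varied scaling, pseudocount, filter, thresholds, trend, block, libraries and the member rule. Python 3.11.15, numpy 2.4.6, scipy 1.17.1, pandas 2.3.3 and pyfaidx 0.9.0.4 were used. Hi-C of 8 samples was not used here.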

Additional observations from a re-analysis of the deposited data

How the results depend on the processing

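The 8953 members became 498 with a 0h score of at least 10, 1749 without those that have a contact of their bait within 10 kb at 1h or 12h and 3667 without those whose neighbouring fragment was listed then. Other distance limits, another definition of the bait and bait to bait pairs kept the count within 1.5 times. The called genes with members, 282 midway, 289 at 1h, 851 at 12h, 1473 at 48h and 649 from 12h to 48h, became in this order 102, 134, 460, 925 and 320 with a pseudocount of 1 and 45, 68, 250, 607 and 174 beyond 2 log2. They were 80, 63, 245, 430 and 195 among genes of members without a near contact and 17, 24, 97, 155 and 57 among genes of members with a 0h score of at least 10, where fewer genes are tested. Without a fold threshold they were 713 midway, 476 at 1h, 1296 at 12h and 1013 from 12h to 48h. On unscaled TPM they were 773 midway, 593 at 1h and 1141 from 12h to 48h. Genes with no overlap of libraries midway numbered 83, a rule added after seeing the data. Leaving out a library kept each count within 1.5 times.

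Replicate numbers were not shown to pair the libraries: deviations of libraries with the same number correlated at -0.01 to 0.26, with 7 of 18 pairs over 0.1. With the replicate block the called genes numbered 281 midway, 286 at 1h, 860 at 12h, 1487 at 48h and 649 from 12h to 48h.

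Of 4414 alternative values for 203 called differences of named genes, none changed sign and 283 no longer passed, 104 of them beyond 2 log2, 51 unscaled and 46 with a pseudocount of 1. Without replicates, the lists cannot show whether a member would be missing midway in a second experiment, and TPM without counts do not show how few reads lie behind low values.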
